A study of Mus musculus with 18 samples.

Results

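The genes described here are those that encode the proteins of the mitochondrial ribosome, found as every row of the count files whose symbol starts with Mrpl or Mrps followed by a digit and does not hold -ps, the mark of a pseudogene. There were 77 such genes among 43280 rows. RNA of 18 libraries of sorted mouse T-lineage cells had been sequenced in 4 groups: CD4+CD8+ (n = 3), iRTE (n = 5), Artificial CD8 (n = 5) and splenic CD8 (n = 5). The libraries of the first 3 groups carry the source name Pmel iPSC and a sample type of differentiated, so all were made in culture from induced pluripotent stem cells, and the splenic libraries are naive CD8+ cells of transgenic mice. The splenic libraries' descriptions also begin with pmel, the name of a T-cell receptor transgene, so by the labels the cultured cells and the mice share it. The study's design names CD4+CD8+ cells and CD8+ cells grown on OP9-DL1, a stromal line that carries a Notch ligand, and CD8+ cells from 3D thymic culture. The labels do not spell out iRTE, and its culture was taken as the thymic one because the descriptions of the Artificial CD8 libraries name OP9. All libraries, the splenic ones included, carry a growth protocol naming OP9-DL1. Sorting used CD45, the T-cell receptor and the CD4 and CD8 coreceptors, with a dump gate. No treatment, age or number of pooled animals was given, and no label says whether replicates are independent cultures or mice. The p-values therefore cover only library-to-library spread, which may be technical.

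The mitochondrial ribosome translates the few messages of the mitochondrial genome, all of which encode subunits of the respiratory chain and ATP synthase. Its RNAs are mitochondrially encoded, whereas all of its proteins are made from nuclear genes, translated in the cytosol and imported. The large subunit joins amino acids and holds the exit tunnel, and the small subunit binds the message and reads its codons. Many of the proteins have a bacterial counterpart, and others are found only in mitochondria. T cells are known to need mitochondrial translation for growth and effector function.

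Of the 77 members, 50 were assigned to the large subunit and 26 to the small subunit, by the current assignments, which place Mrps18a and Mrps30 in the large subunit. Mrps36 is named like a ribosomal protein but is now known as a subunit of 2-oxoglutarate dehydrogenase, and was kept because its symbol meets the rule. By the current nomenclature, 46 carry the name of a bacterial counterpart and 31 a mitochondria-specific name. Mrps18a and Mrps18b are among the latter, although they are relatives of Mrps18c, which carries the bacterial name. The filter on low counts left 76 members in the test. Mrpl53 did not pass it, with 0 to 0.22 CPM, which are counts scaled to a common library size with TMM factors. In these libraries 3 counts were worth 0.155 to 0.269 CPM, and no fold change is given for this gene. Every other member had a mean of at least 10 CPM in each of the 4 groups.

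Promoters are shown here for members at the 2 ends of the change against splenic cells described below: Mrpl34 and Mrpl27 had the largest mean change over the 3 cultured groups, and Mrpl24 and Mrps26 were among the 3 lowest. Mrpl38, the lowest of all, has no entry in the table used. Each line gives the 250 bases before the RefSeq start, from 5′ to 3′, in build GRCm38.p6. Capitals mark matches to searched motifs, on either strand: CCGGAAG, the core bound by ETS factors (CTTCCGG on the other strand), GGGCGG, the GC box (CCGCCC), and the core of the ZNF143 motif, ACTACA and TCCCA parted by 2 bases, which was added to the search after the sequences were read.
Mrpl34, chr8:71464676-71464925, plus strand: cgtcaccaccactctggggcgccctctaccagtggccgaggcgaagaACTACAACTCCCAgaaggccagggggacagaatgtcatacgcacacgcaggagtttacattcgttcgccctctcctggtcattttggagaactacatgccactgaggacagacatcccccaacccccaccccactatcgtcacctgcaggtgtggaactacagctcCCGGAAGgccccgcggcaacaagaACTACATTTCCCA
Mrpl27, chr11:94653541-94653790, plus strand: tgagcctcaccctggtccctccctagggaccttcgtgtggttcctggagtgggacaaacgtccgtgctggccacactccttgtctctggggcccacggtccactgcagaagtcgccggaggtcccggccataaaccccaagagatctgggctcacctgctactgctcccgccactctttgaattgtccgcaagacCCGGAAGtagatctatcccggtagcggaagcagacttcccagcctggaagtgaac
Mrpl24, chr3:87919294-87919543, plus strand: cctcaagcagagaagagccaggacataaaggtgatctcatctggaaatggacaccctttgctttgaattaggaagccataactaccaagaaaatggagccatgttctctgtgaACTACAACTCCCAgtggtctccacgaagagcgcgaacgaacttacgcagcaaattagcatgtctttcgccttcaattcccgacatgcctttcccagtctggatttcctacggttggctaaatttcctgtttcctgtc
Mrps26, chr2:130563507-130563756, plus strand: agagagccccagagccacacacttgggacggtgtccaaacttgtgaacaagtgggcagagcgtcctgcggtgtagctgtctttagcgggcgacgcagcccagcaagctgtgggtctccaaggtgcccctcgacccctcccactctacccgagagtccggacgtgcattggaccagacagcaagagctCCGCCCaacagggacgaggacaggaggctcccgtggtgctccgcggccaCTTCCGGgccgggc

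The ZNF143 core occurs in the promoter of a member that was higher and of one that was lower than in splenic cells: Mrpl34 holds it at bases 203 to 191 and 13 to 1 before the start, and Mrpl24 at bases 137 to 125. The ETS core lies 37 to 31 bases before the start of Mrpl34, 55 to 49 before that of Mrpl27 and 14 to 8 before that of Mrps26. No 2 of the capitals in these promoters overlap. Promoters were matched for 68 members, in 74 windows of 250 bases. The ETS core was in 23.0% of these windows, beside 13.8% of the windows of all genes tested and 6.91% of all windows. The palindrome bound by NRF-1 was in 4.05% (1.68% of tested genes), AAGATGGCG of YY1 in 2.703% (1.225%), the E-box CACGTG in 9.46% (8.16%), the ZNF143 core in 6.76% (3.09%) and the GC box in 50% (56.0%). These shares describe letters in a window and were not tested.

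Depth ran from 11132768 to 19305751 counts per library, and the members took 0.306% to 0.629% of them. Cd3e, a T-cell receptor subunit, and Cd8a were present in all 18 libraries, and Cd4 had a mean of 224 CPM in the CD4+CD8+ group, 4.41 CPM in Artificial CD8, 0.03 CPM in splenic cells and 0 in iRTE. T-cell markers were not at like levels. In CD4+CD8+, iRTE, Artificial CD8 and splenic cells, mean CPM were 740, 1080, 726 and 818 for Cd3e and 872, 1158, 585 and 1155 for Cd8a. In that order, Cd5 was at 66.7, 8.34, 56.2 and 98.8 CPM and Ptprc at 2033, 1816, 1695 and 2871 CPM. The mean sums of the 10 T-cell markers were 9619, 10469, 7621 and 10652 CPM. Among stromal markers, Dcn and Lum had no count in any library, and the 12 together summed to 1.56 to 45.6 CPM in CD4+CD8+, 17.3 to 26.4 in Artificial CD8, 0.97 to 4.41 in iRTE and 2.46 to 4.41 in splenic libraries. Most of the Artificial CD8 sum was Pdgfrb, with a mean of 18.5 CPM, beside 1.83 CPM for Col1a2, the next highest. In CD4+CD8+ the highest means were 7.64 CPM for Col1a2, 5.94 for Pdgfrb and 4.72 for Col1a1. Thymic epithelial markers summed to 30.5 to 40.8 CPM in Artificial CD8, 16.0 to 19.5 in CD4+CD8+, 1.06 to 8.78 in iRTE and 1.90 to 4.88 in splenic libraries. These sums came mainly from Epcam, with Foxn1 at 0 throughout. B-cell markers summed to 33.4 to 46.5 CPM and erythroid markers to 81.5 to 112 CPM in splenic libraries, beside at most 7.09 and 2.58 CPM in cultured ones. Myeloid markers summed to 0.18 to 13.4 CPM. The part of these other cells in the results below was not tested.

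Libraries within a group were not alike. The sample descriptions name iRTE 1 to 3 (mature and a letter) in another style than iRTE 4 and 5 (pmel, the group and a number). The libraries were read here as 2 sets, CD4+CD8+ (immature and a number) with iRTE 1 to 3, and the splenic and Artificial CD8 libraries with iRTE 4 and 5. This reading is a choice, since no label calls the sets batches and the names within each differ too. Mitochondrially encoded genes summed to 19283 to 24465 CPM in iRTE 1 to 3 and to 9294 and 8681 CPM in iRTE 4 and 5. Cell cycle genes summed to 1559 CPM in iRTE 4 and to 4236 to 4693 CPM in the other iRTE libraries. Counts of iRTE calls among the members, and the named calls that change, are therefore also given for iRTE 1 to 3 and for iRTE 4 and 5 alone. Fewer iRTE libraries give a weaker test, so a call lost there does not show that the difference is absent. By this reading all CD4+CD8+ libraries lie in one set and all splenic and Artificial CD8 libraries in the other, so in those comparisons the set and the group cannot be told apart.

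Transcripts of the mitochondrial ribosomal proteins were more abundant in each cultured group than in splenic CD8 cells. Their summed level was 6389, 4473 and 4706 CPM in the CD4+CD8+ libraries and 5089, 4989, 6258, 3725 and 5085 CPM in the iRTE libraries. It was 4654, 4533, 4271, 4506 and 4917 CPM in Artificial CD8 and 3095, 2876, 2923, 3254 and 3309 CPM in splenic CD8. Every cultured library lay above every splenic one, the nearest being iRTE 4, while the cultured groups overlapped. The group means were 1.63 times the splenic mean for iRTE, 1.48 times for Artificial CD8 and 1.68 times for CD4+CD8+. In bulk RNA, a larger share of cells with a high level and more RNA per cell cannot be told apart, and CPM are shares of a library, not amounts per cell.

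**Figure D1:**
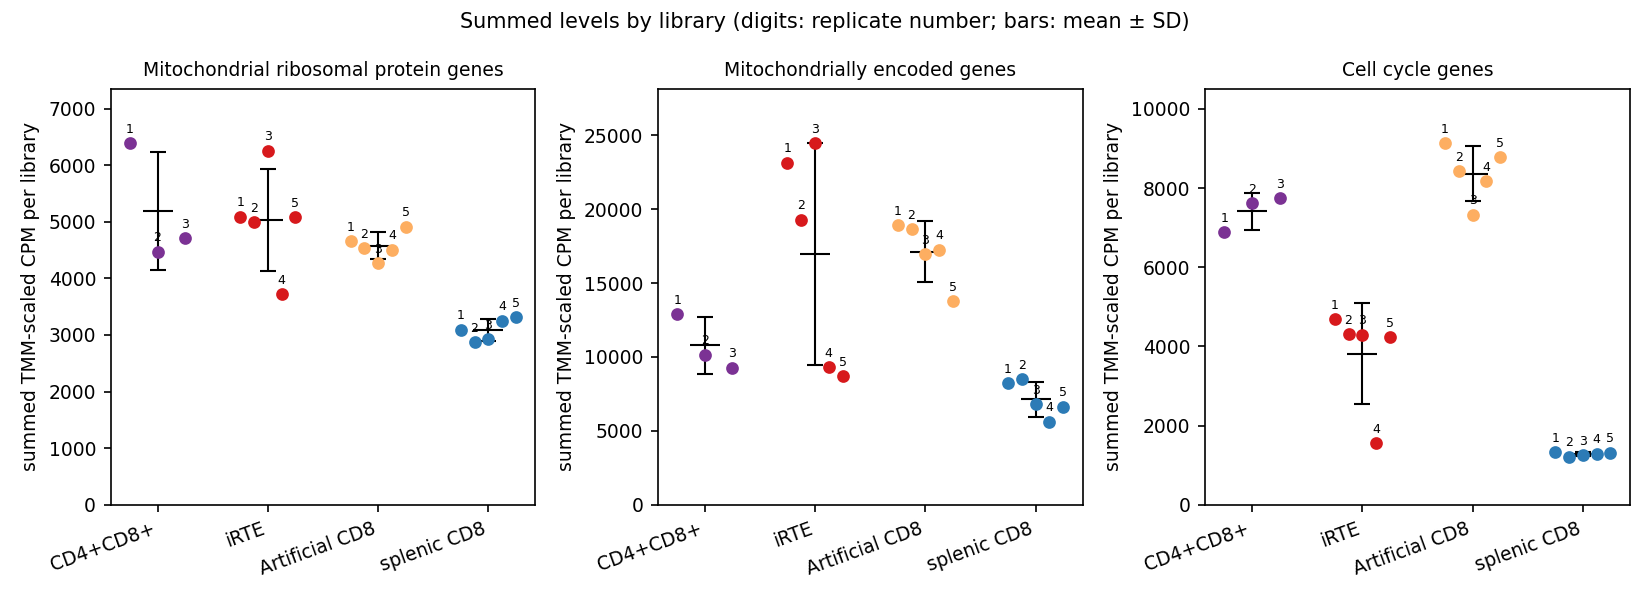
Summed TMM-scaled CPM (y axis) of the mitochondrial ribosomal protein genes, the mitochondrially encoded genes and the cell cycle genes in each library, by group (x axis). Points are libraries numbered by replicate, and bars are mean ± SD. For the ribosomal proteins all splenic libraries lie at or below 3309 CPM and all cultured ones at or above 3725 CPM, whereas the mitochondrially encoded genes divide the iRTE libraries, 1 to 3 against 4 and 5.

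In iRTE cells 60 of the 76 tested members were higher than in splenic cells and 2 were lower, by edgeR's quasi-likelihood test with adjustment over 13922 genes at a threshold of 0.05. Of all genes tested, 29.2% were called higher and 29% lower. The median log2 fold change of the members was 0.77, beside -0.05 over all genes. In Artificial CD8 cells 55 members were higher and 4 lower, where 30.3% and 30.2% of all genes were called, and the members' median was 0.63 beside -0.03. In CD4+CD8+ cells 61 were higher and 2 lower, where 28.9% and 27.4% of all genes were called, and the median was 0.80 beside -0.03. The 3 comparisons share the splenic libraries and are not independent. When iRTE was represented by replicates 4 and 5, which keeps both sides in one set of names, 44 members were higher and 0 lower, with a median of 0.55. With iRTE 1 to 3 alone, 61 were higher and 1 lower, with a median of 0.86.

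Changes were modest in size. A call with at least a 2-fold change was made for 20 members in iRTE, 14 in Artificial CD8 and 25 in CD4+CD8+. The share of all genes with such a call was not counted, so these numbers are not set against a background. Every iRTE library lay above every splenic library for 45 members and below for 1, where 18.6% and 22.6% of all genes did so. In Artificial CD8 these numbers were 58 and 4 (30% and 31.1% of all genes), and in CD4+CD8+ 61 and 1 (30.7% and 32.7%). Counted across the 3 comparisons, which share the splenic libraries, 49 members were higher in each, 12 in 2, 5 in 1 and 10 in none. These patterns were not counted over all genes.

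**Figure D2:**
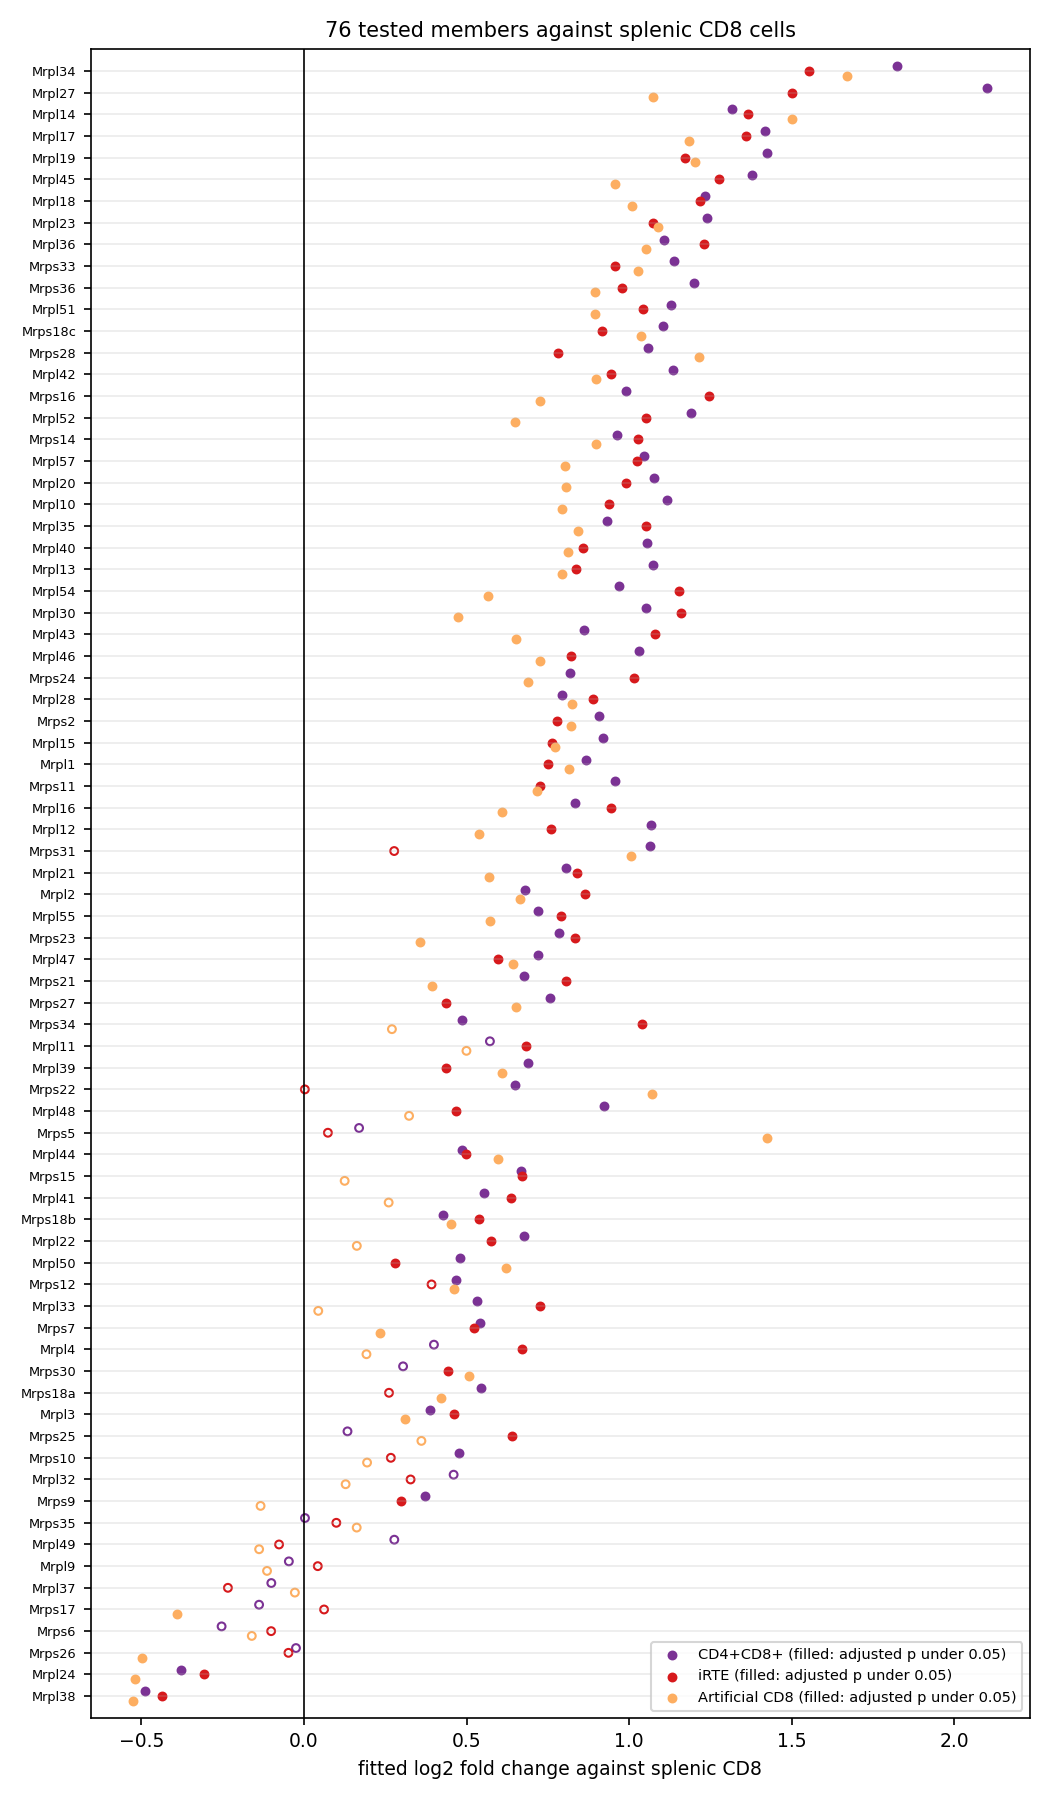
Fitted log2 fold change against splenic CD8 (x axis) of the 76 tested members (y axis, ordered by the mean of the 3 values), with a colour per cultured group. Filled points passed the threshold and open points did not. Mrpl34 and Mrpl27 lie at the top and Mrpl24 and Mrpl38 at the bottom, and Mrps5 stands to the right in Artificial CD8 alone.

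Proteins of the large subunit were called higher more often than those of the small subunit, though the difference between the subunits was not tested. Of 49 large subunit members, 42 were higher in iRTE, 37 in Artificial CD8 and 40 in CD4+CD8+, with medians of 0.84, 0.64 and 0.87 on the log2 scale. Of 26 small subunit members, 17, 17 and 20 were higher, with medians of 0.59, 0.46 and 0.66. In the same order, 2, 2 and 2 large and 0, 2 and 0 small subunit members were lower. Of all genes, 29.2%, 30.3% and 28.9% were called higher and 29%, 30.2% and 27.4% lower. In CD4+CD8+ the shares of the subunits called higher were closest, 81.6% and 76.9%. The ratio of summed large to small subunit CPM was 2.11 to 2.17 in splenic libraries, 2.24 to 2.35 in Artificial CD8, 2.33 to 2.56 in iRTE and 2.48 to 2.57 in CD4+CD8+. The splenic libraries lay below all others, with no overlap. Members with a bacterial counterpart were higher in 38, 34 and 38 of 46 and mitochondria-specific members in 22, 21 and 23 of 30, in iRTE, Artificial CD8 and CD4+CD8+. Lower were 1, 2 and 1 of the former and 1, 2 and 1 of the latter.

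Mrpl34, a small protein of the large subunit with a bacterial counterpart, had the largest mean change. Its level was 132, 84.4 and 83.8 CPM in CD4+CD8+, 80.4, 77.6, 98.2, 80.5 and 77.7 CPM in iRTE, 91.0, 91.3, 83.2, 90.4 and 93.3 CPM in Artificial CD8 and 29.0, 23.5, 27.5, 31.9 and 29.3 CPM in splenic cells. The cultured libraries all lay far above the highest splenic level, with no overlap. Against splenic cells the log2 fold change was 1.55 (SE 0.10, adjusted p = 1.01e-08) for iRTE, 1.67 (SE 0.08, adjusted p = 2.17e-09) for Artificial CD8 and 1.82 (SE 0.23, adjusted p = 4.88e-09) for CD4+CD8+.

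Mrpl27, whose bacterial counterpart reaches towards the peptidyl transferase centre, differed also among the cultured groups. It was at 123, 80.3 and 77.0 CPM in CD4+CD8+, 54.6, 54.0, 72.2, 50.3 and 76.8 CPM in iRTE, 48.8, 45.4, 45.0, 44.7 and 44.7 CPM in Artificial CD8 and 20.4, 17.5, 21.1, 27.4 and 22.3 CPM in splenic cells. All 4 groups were apart from one another, in the order CD4+CD8+, iRTE, Artificial CD8, splenic, with no overlap between libraries. The log2 fold change against splenic cells was 2.10 (SE 0.24, adjusted p = 1.20e-08) in CD4+CD8+ and 1.5012 (SE 0.16, adjusted p = 2.29e-07) in iRTE. Artificial CD8 was below CD4+CD8+ by -1.03 (SE 0.22, adjusted p = 0.000642). The step from iRTE to Artificial CD8, 0.43 (SE 0.13, adjusted p = 0.0313), was not past the threshold without iRTE 3 or 5 or Artificial CD8 2, 3, 4 or 5 (adjusted p of 0.0566 to 0.0796). With iRTE 4 and 5 alone it was 0.47 and did not pass (adjusted p = 0.0704). The step from CD4+CD8+ to iRTE, -0.60 (SE 0.25, adjusted p = 0.0154), was not past the threshold without CD4+CD8+ 1 (adjusted p = 0.15). With iRTE 4 and 5 alone it was -0.55 (adjusted p = 0.0768). Exons of Mrpl27 share bases with Eme1 on the opposite strand, and the counts were not stated to use strand, so its level is uncertain.

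Mrpl14, a large subunit protein at the face that meets the small subunit, was at 48.1, 27.3 and 29.6 CPM in CD4+CD8+ and 39.1, 35.1, 52.4, 26.6 and 27.9 CPM in iRTE. It was at 38.7, 38.3, 36.0, 38.3 and 47.3 CPM in Artificial CD8 and 13.3, 12.02, 13.3, 15.8 and 15.8 CPM in splenic cells. It was higher than in splenic cells in all 3 cultured groups, by 1.4997 (SE 0.10, adjusted p = 1.63e-06) in Artificial CD8, and its exons overlap those of Tmem63b. Among small subunit members, the largest rises were those of Mrps16 in iRTE, 1.25 (SE 0.23, adjusted p = 3.25e-05), and of Mrps33 in CD4+CD8+, 1.14 (SE 0.23, adjusted p = 4.59e-05). In Artificial CD8 Mrps28 rose by 1.21 (SE 0.10, adjusted p = 3.22e-06), second to Mrps5, which is described with the cultured groups.

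Only Mrpl38 and Mrpl24 were lower than in splenic cells in all 3 comparisons. Mrpl38, a mitochondria-specific protein of the large subunit, was at 43.8, 42.7, 44.6, 48.5 and 45.1 CPM in splenic cells. It was at 38.5, 29.2 and 28.3 CPM in CD4+CD8+, 31.9, 29.1, 37.1, 27.6 and 40.3 CPM in iRTE and 35.7, 30.1, 30.8, 28.7 and 30.9 CPM in Artificial CD8. Every cultured library lay below every splenic one. It fell by 0.44 (SE 0.11, adjusted p = 0.00556) on the log2 scale in iRTE and by 0.52 (SE 0.06, adjusted p = 0.00127) in Artificial CD8. With iRTE 4 and 5 alone the first value was -0.40 (adjusted p = 0.0533). Mrpl38 fell by 0.49 (SE 0.14, adjusted p = 0.00817) in CD4+CD8+, a call lost without CD4+CD8+ 3 (adjusted p = 0.0557).

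Mrpl24, whose bacterial counterpart starts large subunit assembly, was at 64.7, 60.0, 61.5, 70.8 and 70.2 CPM in splenic cells and 43.6, 42.4, 50.2, 43.5 and 48.7 CPM in Artificial CD8. It was at 62.1, 42.9 and 46.1 CPM in CD4+CD8+ and 45.9, 54.0, 63.2, 43.9 and 57.6 CPM in iRTE, both of which overlapped the splenic range. It fell by 0.52 (SE 0.07, adjusted p = 0.00124) in Artificial CD8. The falls in iRTE, -0.31 (SE 0.11, adjusted p = 0.0384), and in CD4+CD8+, -0.38 (SE 0.17, adjusted p = 0.0313), were close to the threshold. The first was not past it without iRTE 1, 2 or 4 or splenic 1, 3, 4 or 5 (adjusted p of 0.0546 to 0.108), and the second without CD4+CD8+ 2 or 3 or splenic 1, 4 or 5 (0.0575 to 0.174). The iRTE value was -0.27 with iRTE 1 to 3 alone and -0.36 with iRTE 4 and 5 alone, and passed in neither (adjusted p = 0.0827 and 0.0656). Mrpl24 exons overlap Rrnad1 on the other strand.

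The other calls of a lower level were made in Artificial CD8 against splenic cells, for the small subunit members Mrps26, -0.50 (SE 0.06, adjusted p = 0.00464), and Mrps17, -0.39 (SE 0.07, adjusted p = 0.0271). The latter was not past the threshold without splenic 1, 4 or 5 or Artificial CD8 3 or 4 (adjusted p of 0.0597 to 0.0833). Mrps26 had 52.5, 52.3, 51.5, 46.8 and 54.1 CPM in Artificial CD8 and 69.1, 67.3, 70.0, 78.8 and 77.9 CPM in splenic cells. Its change was -0.05 (SE 0.15, adjusted p = 0.788) in iRTE and -0.02 (SE 0.18, adjusted p = 0.906) in CD4+CD8+. Of the members that did not pass against splenic cells, those of highest mean CPM, which is not scaled by gene length, were Mrps17 and Mrpl37 for iRTE, at 0.06 (SE 0.17, adjusted p = 0.736) and -0.23 (SE 0.10, adjusted p = 0.122). For Artificial CD8 they were Mrpl4 and Mrpl37, at 0.19 (SE 0.05, adjusted p = 0.271) and -0.03 (SE 0.07, adjusted p = 0.863), and for CD4+CD8+ Mrpl4 and Mrps17, at 0.40 (SE 0.24, adjusted p = 0.0514) and -0.14 (SE 0.19, adjusted p = 0.498). Mrpl37 was past the threshold in iRTE without iRTE 3 (adjusted p = 0.0324), and Mrpl4 in CD4+CD8+ without CD4+CD8+ 2 or 3 (0.0182 and 0.0356).

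**Figure D3:**
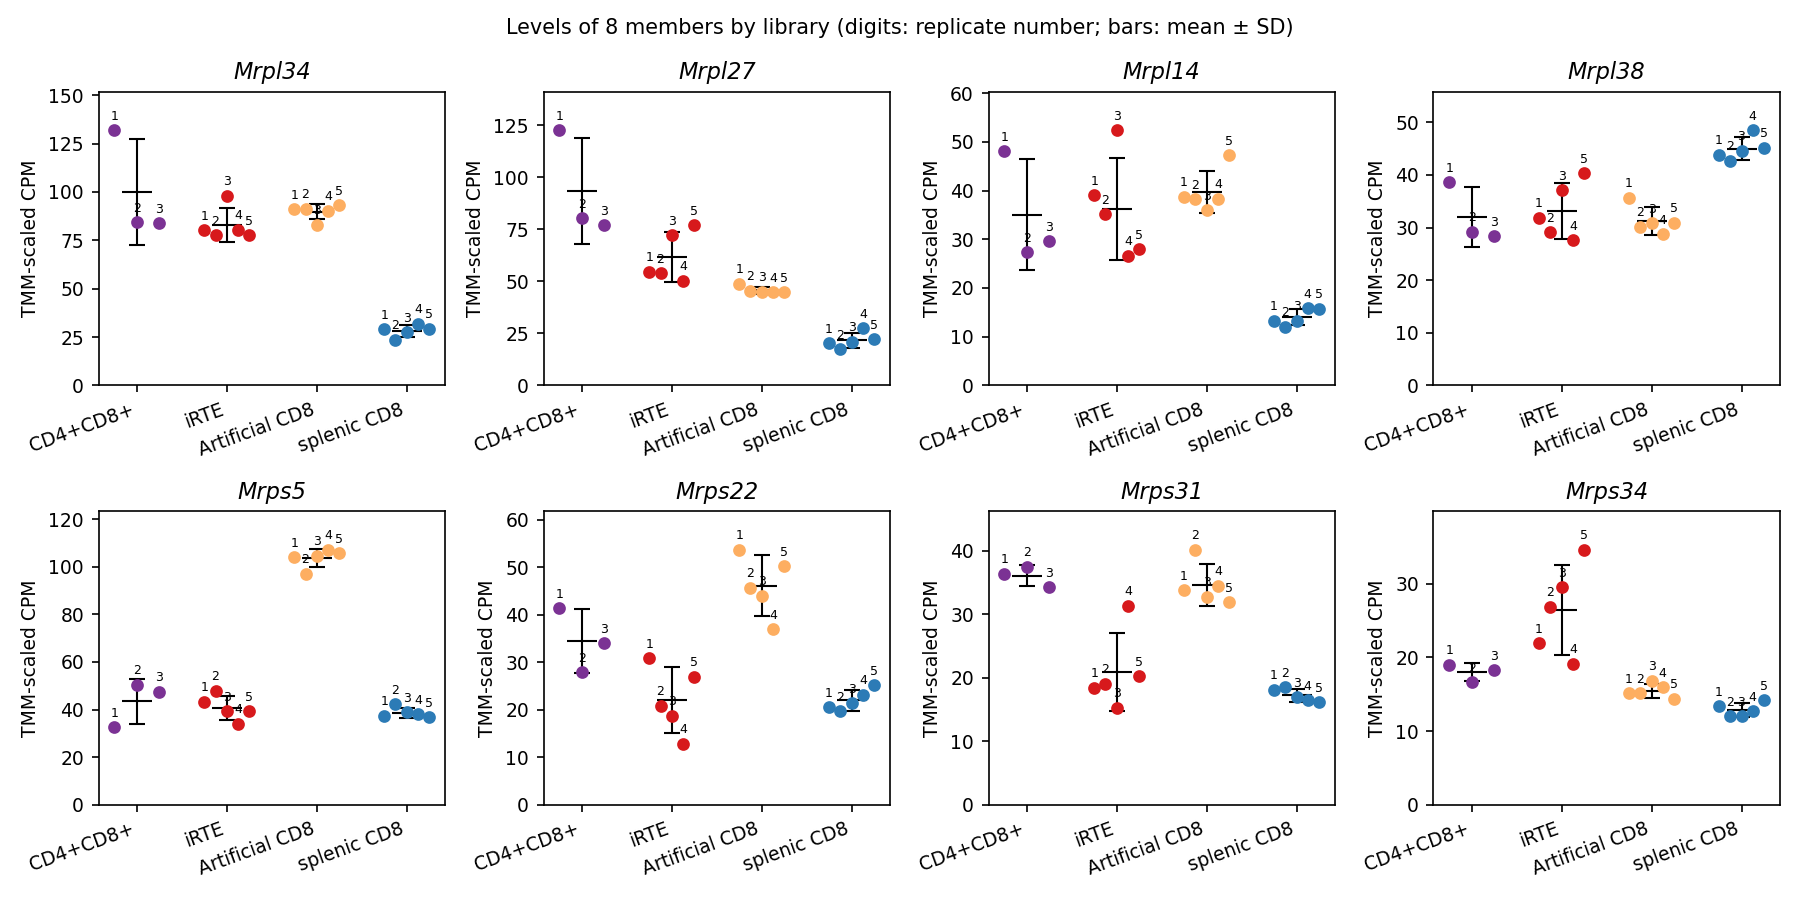
TMM-scaled CPM (y axis) of 8 members in each library, by group (x axis). Points are libraries numbered by replicate, and bars are mean ± SD. Mrpl34, Mrpl27 and Mrpl14 are lowest and Mrpl38 is highest in splenic cells, Mrps5 is near 100 CPM in Artificial CD8 alone, and Mrps31 has 1 iRTE library, replicate 4, near the Artificial CD8 level.

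Members with a role of their own were described in each comparison. Mrpl12, of the stalk that recruits translation factors and a reported partner of mitochondrial RNA polymerase, rose by 0.76, 0.54 and 1.07 in iRTE, Artificial CD8 and CD4+CD8+ (adjusted p = 0.00107, 0.0118 and 0.000152). Mrpl10, which anchors the stalk, rose by 0.94, 0.79 and 1.12 (adjusted p = 8.86e-07, 4.20e-06 and 4.29e-07). Mrpl23, at the exit of the tunnel, rose by 1.07, 1.09 and 1.24 (adjusted p = 6.47e-06, 3.77e-06 and 4.64e-06). Mrpl36, one of the smallest ribosomal proteins, rose by 1.23, 1.05 and 1.11 (adjusted p = 1.60e-06, 6.81e-06 and 1.99e-05), but its exons overlap the respiratory gene Ndufs6. Mrps36, of the dehydrogenase, rose by 0.98, 0.89 and 1.20 (adjusted p = 7.58e-05, 0.000155 and 3.31e-05).

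The relatives Mrps18a, Mrps18b and Mrps18c are placed in the large subunit (Mrps18a) and the small subunit (Mrps18b and Mrps18c). Mrps18c had the largest changes of the 3, 0.92, 1.04 and 1.10 in iRTE, Artificial CD8 and CD4+CD8+ (adjusted p = 0.000365, 9.19e-05 and 0.000204). Exons of Mrps18c share bases with Gm43511 on the same strand, so its level is uncertain. Mrps18b changed by 0.54, 0.45 and 0.43 (adjusted p = 0.000705, 0.0027 and 0.0112). Mrps18a changed by 0.42 in Artificial CD8 and 0.55 in CD4+CD8+ (adjusted p = 0.0116 and 0.00574) and did not pass in iRTE, at 0.26 (SE 0.12, adjusted p = 0.105). Without CD4+CD8+ 1, the CD4+CD8+ calls were lost for Mrps18a (adjusted p = 0.0865) and Mrps18b (adjusted p = 0.0829). Without iRTE 4 the iRTE value of Mrps18a passed (adjusted p = 0.0326). The differences between the 3 were not tested.

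Mrps12, which lies at the decoding centre, had smaller values, 0.39 (SE 0.18, adjusted p = 0.0513) in iRTE, 0.46 (SE 0.12, adjusted p = 0.0225) in Artificial CD8 and 0.47 (SE 0.23, adjusted p = 0.0444) in CD4+CD8+. The Artificial CD8 call was lost without splenic 2 or Artificial CD8 5 (adjusted p of 0.0502 and 0.0608), and that in CD4+CD8+ without CD4+CD8+ 1 or splenic 1, 2 or 3 (0.0569 to 0.358). In iRTE it passed with iRTE 1 to 3 alone (adjusted p = 0.00869), and without iRTE 4 or splenic 4 or 5 (0.00877 to 0.0468). Mrpl41 was at 0.64 (SE 0.18, adjusted p = 0.00398), 0.26 (SE 0.06, adjusted p = 0.198) and 0.55 (SE 0.28, adjusted p = 0.0226) in iRTE, Artificial CD8 and CD4+CD8+. The first call was lost with iRTE 4 and 5 alone (0.42, adjusted p = 0.089) and the last without CD4+CD8+ 1 (adjusted p = 0.326). Mrps30 rose in iRTE and Artificial CD8, by 0.44 (SE 0.17, adjusted p = 0.00853) and 0.51 (SE 0.08, adjusted p = 0.00298), and was at 0.30 (SE 0.09, adjusted p = 0.0974) in CD4+CD8+. Mrps6, a counterpart of a bacterial platform protein, passed in none of the 3, at -0.10, -0.16 and -0.25 (adjusted p = 0.528, 0.3 and 0.165), though without CD4+CD8+ 1 the last was past the threshold (adjusted p = 0.0341). Exons of Mrps6 share bases with Slc5a3 and Gm49711 on the same strand, so its level is uncertain.

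Among the cultured groups, 21 members differed between iRTE and Artificial CD8, 5 between iRTE and CD4+CD8+ and 6 between Artificial CD8 and CD4+CD8+. Between iRTE and Artificial CD8, 16 members were higher in iRTE and 5 lower, where 20% and 18.7% of all genes were called, so the members' share was near the background for higher and under it for lower calls. The median was 0.15, and all but 2 of the calls were under 2-fold. These counts turned on the library set: 32 members were higher with iRTE 1 to 3 alone and 3 with iRTE 4 and 5 alone, with medians of 0.26 and -0.07, while 5 were lower in both cases. Without iRTE 3, 9 were higher, and 3 were lower without iRTE 2 or Artificial CD8 1 or 5. Between iRTE and CD4+CD8+, 1 member was higher and 4 lower (11.8% and 12.3% of all genes), with a median of -0.07. Within the set that holds CD4+CD8+ and iRTE 1 to 3, 3 were higher and 3 lower. Over all iRTE libraries, 1 was lower without CD4+CD8+ 1 and 2 without CD4+CD8+ 3, and 0 were higher without CD4+CD8+ 2 or 3 or iRTE 5. Between Artificial CD8 and CD4+CD8+, 1 was higher and 5 lower (6.54% and 8.12%), with a median of -0.21, and 1 was lower without CD4+CD8+ 1 and 3 without Artificial CD8 3. Every library lay above in 6, 1 and 1 members and below in 3, 4 and 14 members in these 3 comparisons, where 11%, 8.22% and 14.2% of all genes lay above and 12.6%, 11.3% and 14.8% below.

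Mrps5, a small subunit protein whose bacterial counterpart lines the path by which the message enters, was the member that set Artificial CD8 apart. It was at 104, 97.1, 105, 107 and 106 CPM in Artificial CD8, beside 43.3, 47.8, 39.2, 34.0 and 39.2 CPM in iRTE. CD4+CD8+ libraries held 32.6, 50.4 and 47.4 CPM and splenic libraries 37.4, 42.2, 38.8, 38.0 and 36.7 CPM. The lowest Artificial CD8 library was above every other library, and the other 3 groups overlapped. Artificial CD8 was higher than splenic cells by 1.42 (SE 0.04, adjusted p = 6.06e-09) and than CD4+CD8+ by 1.25 (SE 0.20, adjusted p = 1.31e-05), and iRTE was lower than Artificial CD8 by -1.35 (SE 0.09, adjusted p = 6.47e-08). These 3 calls held under every alternative tried. Against splenic cells the change of Mrps5 was 0.07 (SE 0.09, adjusted p = 0.606) in iRTE and 0.17 (SE 0.20, adjusted p = 0.287) in CD4+CD8+.

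Mrps22 and Mrps31, mitochondria-specific proteins of the small subunit, were lower in iRTE than in both other cultured groups. Mrps22 was at 30.8, 20.9, 18.7, 12.8 and 27.0 CPM in iRTE, 53.7, 45.7, 44.0, 37.0 and 50.3 CPM in Artificial CD8, 41.4, 27.9 and 34.1 CPM in CD4+CD8+ and 20.6, 19.7, 21.4, 23.1 and 25.1 CPM in splenic cells. The iRTE range lay under that of Artificial CD8 and held the splenic one. It was lower in iRTE than in Artificial CD8 by -1.07 (SE 0.24, adjusted p = 0.000202) and than in CD4+CD8+ by -0.65 (SE 0.27, adjusted p = 0.0345). The second call was lost without CD4+CD8+ 1 or 3 or iRTE 2 or 3 (adjusted p of 0.0611 to 0.158). Mrps31 was at 18.4, 19.1, 15.3, 31.3 and 20.2 CPM in iRTE, 33.8, 40.2, 32.8, 34.5 and 31.9 CPM in Artificial CD8, 36.4, 37.5 and 34.2 CPM in CD4+CD8+ and 18.1, 18.5, 16.9, 16.5 and 16.1 CPM in splenic cells. iRTE 4, the library with the lowest cell cycle sum of its group, was the highest of iRTE for Mrps31 and the lowest for Mrps22. Mrps31 was lower in iRTE than in Artificial CD8 by -0.73 (SE 0.18, adjusted p = 0.00103) and than in CD4+CD8+ by -0.79 (SE 0.17, adjusted p = 0.00287). With iRTE 4 and 5 alone neither Mrps31 call passed, at -0.43 and -0.48 (adjusted p of 0.0557 and 0.0653).

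Mrps34, another mitochondria-specific protein of the small subunit, had the opposite order. It was at 21.9, 26.9, 29.5, 19.1 and 34.6 CPM in iRTE and 15.1, 15.2, 16.9, 16.0 and 14.4 CPM in Artificial CD8. CD4+CD8+ held 19.0, 16.7 and 18.3 CPM and splenic cells 13.4, 12.02, 12.01, 12.7 and 14.2 CPM. All iRTE libraries lay above those of the other 3 groups. It was higher in iRTE than in Artificial CD8 by 0.77 (SE 0.16, adjusted p = 0.000515) and than in CD4+CD8+ by 0.55 (SE 0.16, adjusted p = 0.0279). The second call was lost without CD4+CD8+ 2 or 3 or iRTE 5 (adjusted p of 0.0511 to 0.11). With iRTE 4 and 5 alone it was also lost (adjusted p = 0.0555), though the value was 0.58. Its exons share bases with Nme3 on the same strand and Mapk8ip3 on the other, so its level is uncertain.

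The remaining named calls among cultured cells were each lost under some alternative. In iRTE against Artificial CD8 they included Mrps23, 0.48 (SE 0.12, adjusted p = 0.0102), Mrpl43, 0.43 (SE 0.15, adjusted p = 0.0287), Mrps28, -0.43 (SE 0.15, adjusted p = 0.0384), and Mrpl50, -0.34 (SE 0.10, adjusted p = 0.0259). With iRTE 4 and 5 alone none of the 4 passed, at 0.21, 0.19, -0.32 and -0.36 (adjusted p = 0.353, 0.364, 0.237 and 0.0813). Mrpl43 was lost without iRTE 1 or 3 or Artificial CD8 1 or 2 (0.0503 to 0.103), Mrps28 without iRTE 1, 2 or 4 or Artificial CD8 1, 2, 4 or 5 (0.0507 to 0.0972) and Mrpl50 without iRTE 2 or Artificial CD8 1 or 5 (0.065 to 0.0709). Mrpl49 was lower than in CD4+CD8+ in iRTE, -0.35 (SE 0.09, adjusted p = 0.0486), and in Artificial CD8, -0.42 (SE 0.11, adjusted p = 0.0331). Both calls were lost without any 1 of the CD4+CD8+ libraries, and the first also without iRTE 2, 4 or 5 and the second without Artificial CD8 2, 3 or 4 (adjusted p of 0.0552 to 0.167). The first was also lost with iRTE 1 to 3 alone (-0.28, adjusted p = 0.109). Artificial CD8 was also lower than CD4+CD8+ for Mrpl48, -0.60 (SE 0.19, adjusted p = 0.0246), Mrpl22, -0.52 (SE 0.13, adjusted p = 0.00696), and Mrps9, -0.50 (SE 0.16, adjusted p = 0.0142). None of the 3 passed without CD4+CD8+ 1 (adjusted p = 0.189, 0.0561 and 0.103), nor Mrpl48 without Artificial CD8 3 (0.0538).

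Mrpl18 and Mrps14 had the highest mean CPM among members that did not pass in the cultured comparisons. Mrpl18 was at 0.21, -0.02 and -0.22 for iRTE against Artificial CD8, iRTE against CD4+CD8+ and Artificial CD8 against CD4+CD8+, and Mrps14 at 0.13, 0.07 and -0.06. With iRTE 1 to 3 alone both passed against Artificial CD8, at 0.33 for Mrpl18 (adjusted p = 0.0168) and 0.36 for Mrps14 (adjusted p = 0.0462), and Mrpl18 also without iRTE 4 (0.0112). The 12 members with a role of their own gave 0 calls in these comparisons, with log2 fold changes of -0.16 to 0.38, -0.31 to 0.15 and -0.53 to 0.20 and lowest adjusted p of 0.0907, 0.203 and 0.0773. Of all genes, 20%, 11.8% and 6.54% were called higher there and 18.7%, 12.3% and 8.12% lower, so few calls among 12 would match the background in the last. With iRTE 1 to 3 alone, Mrpl10, Mrpl41 and Mrpl36 were higher than in Artificial CD8, by 0.27, 0.51 and 0.35 (adjusted p = 0.0381, 0.0195 and 0.0394), and Mrpl41 also passed without iRTE 4 (0.0185). With iRTE 4 and 5 alone, Mrpl10 was lower than in CD4+CD8+, at -0.39 (adjusted p = 0.0489). With only the groups compared in the fit, Mrpl12 and Mrpl10 were lower in Artificial CD8 than in CD4+CD8+, at -0.53 and -0.32 (adjusted p = 0.0272 and 0.0419). A value that misses the threshold does not show that the groups are alike.

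Ribosomal proteins that carry other symbols were read from a list written for this purpose. Of 6 tested, 4 were higher and 2 lower in iRTE than in splenic cells, and 3 were higher and 0 lower in Artificial CD8 and in CD4+CD8+. In iRTE these were 66.7% and 33.3%, beside 29.2% and 29% of all genes. In Artificial CD8 and CD4+CD8+ 50% were higher, beside 30.3% and 28.9% of all genes, of which 30.2% and 27.4% were lower. Gadd45gip1, a protein near the tunnel exit, rose by 0.79 in iRTE, 0.77 in Artificial CD8 and 1.04 in CD4+CD8+. Ict1, a peptide release factor built into the large subunit, rose by 0.96, 0.39 and 0.87. Chchd1 rose by 0.60 in iRTE and in Artificial CD8 and was at 0.35 in CD4+CD8+ (adjusted p = 0.157). Aurkaip1 rose by 0.38 in iRTE and 0.33 in CD4+CD8+ and was at 0.21 in Artificial CD8 (adjusted p = 0.101). Dap3, a GTP-binding protein of the small subunit, fell by 0.54 in iRTE (SE 0.11, adjusted p = 0.000348), and was at -0.02 in Artificial CD8 and 0.24 in CD4+CD8+. Ptcd3, also of the small subunit, fell by 0.36 in iRTE (SE 0.10, adjusted p = 0.00692), and was at 0.13 and 0.21.

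The 2 ribosomal RNAs are encoded by the mitochondrial genome, and their counts depend on how the RNA was selected, which the labels do not state. The large subunit RNA, mt-Rnr2, was at 2850, 2142 and 2228 CPM in CD4+CD8+ and 5843, 5319, 8614, 2359 and 2279 CPM in iRTE. It was at 4922, 4943, 4842, 4363 and 3187 CPM in Artificial CD8 and 1753, 1815, 1415, 1171 and 1363 CPM in splenic cells. All cultured libraries lay above the splenic ones, and iRTE 4 and 5 lay far under iRTE 1 to 3. It rose by 1.70 (SE 0.40) in iRTE and 1.57 (SE 0.17) in Artificial CD8 (adjusted p = 5.23e-05 and 9.84e-05), and was at 0.68 (SE 0.17, adjusted p = 0.0728) in CD4+CD8+. The small subunit RNA, mt-Rnr1, rose by 1.00 (SE 0.29) and 1.48 (SE 0.19) in iRTE and Artificial CD8 (adjusted p = 0.000809 and 1.47e-05) and was at -0.31 (SE 0.26, adjusted p = 0.311) in CD4+CD8+. In CD4+CD8+ cells 40 large and 20 small subunit members were called higher. Neither ribosomal RNA passed there, though every library was above the splenic ones for mt-Rnr2.

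Of 25 factors that assemble the mitochondrial ribosome, 7 were higher and 6 lower in iRTE than in splenic cells (28% and 24%, beside 29.2% and 29% of all genes). In Artificial CD8 7 were higher and 8 lower (28% and 32%, beside 30.3% and 30.2%), and in CD4+CD8+ 6 and 6 (24% each, beside 28.9% and 27.4%). These shares are near the background and are no result about the list. Ddx28, a helicase of large subunit assembly, rose by 1.58, 1.61 and 1.55, and Mpv17l2 rose by 1.07, 0.63 and 0.78, in iRTE, Artificial CD8 and CD4+CD8+. In the same order, Mettl17, a factor of small subunit assembly, fell by 1.39, 1.70 and 1.82, and Mterf3 fell by 0.87, 0.88 and 0.38. Of 18 translation factors, 5 were higher and 4 lower in iRTE, 6 and 5 in Artificial CD8 and 4 and 2 in CD4+CD8+, all at or below the shares of all genes but for higher calls in Artificial CD8 (33.3%). Tsfm, an elongation factor, rose by 0.74, 0.89 and 0.75, whereas Guf1 fell by 0.98, 0.75 and 0.62, and Mtfmt, which formylates the initiator, fell by 1.03, 1.08 and 0.69. Of 10 genes of mitochondrial transcription and replication, 1 was higher in each comparison (10%), and 6, 5 and 3 were lower (60%, 50% and 30%). Of all genes, 29.2%, 30.3% and 28.9% were called higher and 29%, 30.2% and 27.4% lower. The share of lower calls in CD4+CD8+ was thus near the background. Tefm, an elongation factor of mitochondrial transcription, was the list's gene that rose, by 1.67, 1.99 and 1.70. Polrmt, the mitochondrial RNA polymerase, fell by 0.41, 0.58 and 0.78.

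Other groups of translation and respiration genes were also called higher than in splenic cells. Of 82 cytosolic ribosomal proteins, 78 were higher in iRTE, 69 in Artificial CD8 and 70 in CD4+CD8+, with 1 lower in each. Of 80 nuclear respiratory chain subunits, 74, 71 and 73 were higher and 2, 2 and 1 lower. Of 20 mitochondrially encoded genes, 19, 20 and 10 were higher and 0 lower. Some of these had few counts, with splenic means of 0.15 CPM for mt-Tt, 0.19 for mt-Nd4l, 0.21 for mt-Ta and 0.45 for mt-Tm. The mitochondrially encoded genes summed to 9294 and 8681 CPM in iRTE 4 and 5, beside 5621 to 8476 CPM in splenic libraries. Of 30 cell cycle genes, 29, 30 and 30 were higher and 0 lower. Of all genes, 29.2%, 30.3% and 28.9% were called higher and 29%, 30.2% and 27.4% lower. Between iRTE and Artificial CD8, 25 cell cycle genes were lower in iRTE and 0 higher, while 34 cytosolic ribosomal proteins were higher and 1 lower. Of all genes, 20% were called higher and 18.7% lower there. Cytosolic ribosomal proteins summed to 47265 to 67165 CPM in iRTE 1 to 3, and to 30948 and 32480 CPM in iRTE 4 and 5. In Artificial CD8 they summed to 32909 to 36176 CPM. The calls of these lists were not counted for the 2 iRTE sets apart. The part of proliferation in the members' levels was not tested. iRTE 4 had the lowest cell cycle sum and the lowest member sum of the cultured libraries. In CD4+CD8+, replicate 1 had the lowest cell cycle sum of its group, 6878 CPM, and the highest member sum. The mean cell cycle sum was 3820 CPM in iRTE and 8367 CPM in Artificial CD8, and the mean member sums were 5029 and 4576 CPM.

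**Figure D4:**
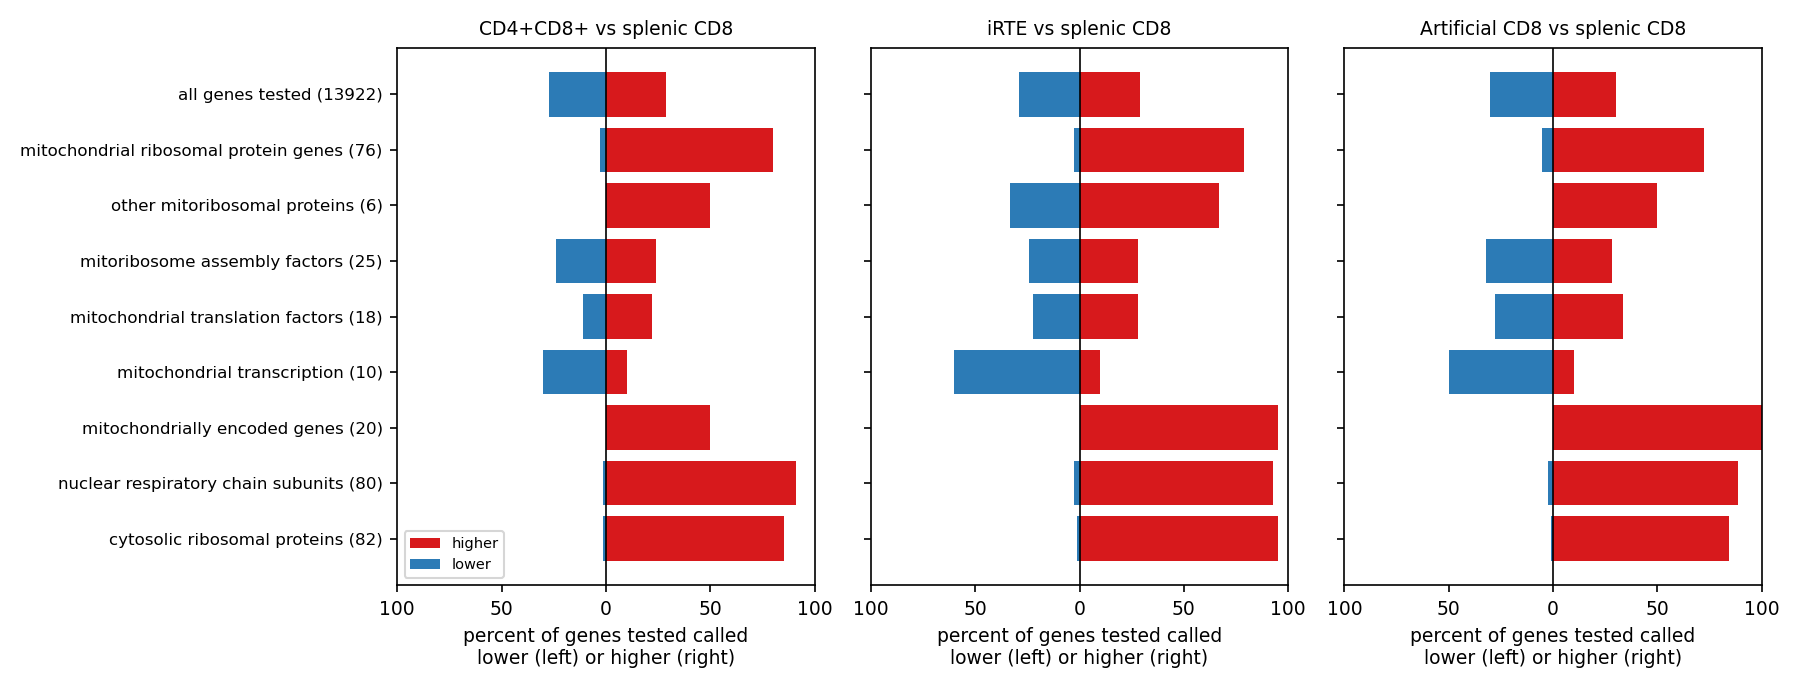
Percent of the genes tested in each list (y axis, number tested in brackets) called lower (left) or higher (right) than in splenic CD8 cells (x axis), with a panel per cultured group. The bars for mitochondrial ribosomal protein genes reach 78.9% higher in iRTE, 72.4% in Artificial CD8 and 80.3% in CD4+CD8+, while assembly factors and all genes are called about evenly in both directions.

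A gene's length was taken as the median over all its annotated transcripts (GENCODE M21 on GRCm38, by symbol), which need not be the length of the message expressed here. By this measure the members were short, with a median of 852 bases beside 1286 over all tested genes with a length. A length was found for 93.9% of tested genes and 76 of 76 members. This check was added after the data were seen. Among other genes under 1 kb, the median log2 fold change against splenic cells was 0.12 in iRTE, 0.07 in Artificial CD8 and 0.12 in CD4+CD8+, and among those over 4 kb -0.37, -0.14 and -0.34. The members under 1 kb, 51 in number, had medians of 0.84, 0.65 and 0.86. The 9 members of 2 to 4 kb had medians of 0.33, 0.62 and 0.65, beside -0.18, -0.10 and -0.15 of other genes of that length. In this annotation, exons of 32 of the 77 members share bases with another gene, 8 of them on the same strand, and those members' levels are uncertain. Some of them are named above without a mark of this.

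Variation between replicates differed by group. The median coefficient of variation of a member's CPM was 7.89% in Artificial CD8, 9.65% in splenic cells, 21.4% in CD4+CD8+ and 22.3% in iRTE. The main test takes a gene's spread from all 18 libraries, so its p-values also reflect groups outside a comparison. For Mrpl41 in Artificial CD8 against splenic cells, edgeR's adjusted p was 0.198, and 0.00483 with only the groups compared. CD4+CD8+ 1 and iRTE 3 had the highest member sums of their groups and also the highest sums of cytosolic ribosomal proteins, 50460 and 67165 CPM.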

How the data were processed

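RNA-seq libraries of 4 groups (18 in all) were compared. Raw counts per gene were deposited by the authors, 1 file per library; per the submitters' processing notes, STAR 2.4.2, Subread and edgeR were used with build mm9, and how the counting treated strand is not given in the sources used here. The table of log2 CPM deposited by the authors was matched within 5.33e-14 by TMM-scaled log2 CPM with a prior count of 2 over its 17765 genes, and was otherwise not used. Groups came from the sample labels. Counts were tested with edgeR 4.0.16 in R 4.3.3 (TMM, filterByExpr, robust quasi-likelihood F test, all 18 libraries, 1 coefficient per group), with Benjamini-Hochberg adjustment over 13922 genes and a threshold of 0.05. Standard errors are from within-group variances of log2 CPM. The files hold no gene lengths, so mean CPM served only to choose which members to name. The test was also run on simulated data in which a small part of the genes was changed, in iRTE alone. Many more genes differ in these data, so that run does not measure error rates here.

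The members and lists were chosen with earlier results of these data known. Named members were, per comparison, the 2 largest rises and falls within each subunit among calls without overlap, the 2 of highest mean CPM that did not pass, all calls of a direction with 5 or fewer, and 12 with a role of their own. Alternatives were other scalings and filters, DESeq2 1.42.0, limma 3.58.1 (voom), a replicate block, the compared groups alone, iRTE split by name set, and each library left out. Positions and sequences use GRCm38, not the authors' build, and are matched by gene symbol.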

Additional observations from a re-analysis of the deposited data

Results flagged for a closer look

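In 8 of 123 sets of library values, 1 library stood apart from the rest of its group by Dixon's test, which chance does in about 1 in 20 groups. The sets were of named members, the summed CPM of all members and of each subunit, and the large to small ratio. CD4+CD8+, with 3 libraries, was not checked. In Artificial CD8, Mrpl14 was at 47.3 CPM in replicate 5 (nearest other library 38.7). In the same group Mrpl18 was at 131 CPM in replicate 3 (nearest 145), Mrpl34 at 83.2 CPM in replicate 3 (nearest 90.4), Mrpl27 at 48.8 CPM in replicate 1 (nearest 45.4) and Mrps30 at 68.2 CPM in replicate 2 (nearest 76.9). In iRTE, Mrpl18 was at 106 CPM in replicate 4 (nearest 176) and Mrpl34 at 98.2 CPM in replicate 3 (nearest 80.5). In splenic cells, Mrpl4 was at 77.6 CPM in replicate 2 (nearest 84.8).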

How the results depend on the processing

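The counts of members higher than in splenic cells stayed within 1.5 times the reported ones under every alternative run: 44 to 62 for iRTE, 50 to 61 for Artificial CD8 and 49 to 66 for CD4+CD8+. Scaling by library totals alone moved the median of all genes in iRTE against splenic cells to -0.23, and the members' median there to 0.59. Of 68 named calls, 41 passed under every alternative, and the cause of the losses was not tested. With only the groups compared, values that had not passed against splenic cells did so for Mrpl4 and Mrpl41 in Artificial CD8 (0.20 and 0.27, adjusted p = 0.00843 and 0.00483) and for Mrpl4 and Mrps30 in CD4+CD8+ (0.41 and 0.31, adjusted p = 0.0245 and 0.0216). With library totals alone, Mrpl37 passed in iRTE (-0.42, adjusted p = 0.00606). For iRTE against splenic CD8, the 2 lower members became 4 with library totals alone, 1 with no filter, 1 with only the groups compared, 1 with iRTE 1 to 3 and 0 with iRTE 4 and 5. For CD4+CD8+ against splenic CD8, the 2 lower became 1 with no filter and 1 with the replicate block. For iRTE against Artificial CD8, the 16 higher became 8 with library totals alone, 32 with iRTE 1 to 3 and 3 with iRTE 4 and 5. For iRTE against CD4+CD8+, the 1 higher became 0 with library totals alone, no filter, the replicate block, only the groups compared or iRTE 4 and 5, 2 with DESeq2 and 3 with iRTE 1 to 3. The 4 lower there became 8 with library totals alone, 0 with only the groups compared and 11 with iRTE 4 and 5. For Artificial CD8 against CD4+CD8+, the 5 lower became 8 with DESeq2 and 13 with only the groups compared. Leaving out 1 library at a time gave 1 to 3 lower for iRTE and 0 to 4 lower for CD4+CD8+ against splenic CD8, and 9 to 24 higher and 3 to 5 lower for iRTE against Artificial CD8. It gave 0 to 3 higher and 1 to 4 lower for iRTE against CD4+CD8+, and 1 to 6 lower for Artificial CD8 against CD4+CD8+.

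Samples that share a replicate number did not deviate together (correlations of -0.066 to 0.059). A weak shared effect could be missed by this check, so pairing is not excluded. With the replicate block the counts of higher and lower members were 59 and 2, 53 and 4, and 57 and 1 for iRTE, Artificial CD8 and CD4+CD8+ against splenic CD8. They were 15 and 5 for iRTE against Artificial CD8, 0 and 4 for iRTE against CD4+CD8+, and 1 and 4 for Artificial CD8 against CD4+CD8+.

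Of 123 named values 30 changed sign under an alternative, in 68 alternative values; none of the 30 was past the threshold and none of the 68 passed it. Scaled by library totals alone, the values were -0.12 for Mrps17 in iRTE against splenic CD8, and -0.0081 for Mrps14, -0.033 for Mrps18b, -0.050 for Mrps36 and -0.065 for Mrps6 in iRTE against Artificial CD8, and -0.050 for Mrps14 and -0.023 for Mrpl41 in iRTE against CD4+CD8+, and 0.018 for Mrps12 in Artificial CD8 against CD4+CD8+. With iRTE held to replicates 4 and 5, the values were -0.11 for Mrps17 in iRTE against splenic CD8, and -0.30 for Mrps14, -0.077 for Mrpl10, -0.21 for Mrps36 and -0.13 for Mrpl36 in iRTE against Artificial CD8, and -0.35 for Mrps14, -0.13 for Mrpl41 and -0.18 for Mrpl36 in iRTE against CD4+CD8+. With no filter on low counts, the values were 0.012 for Mrpl37 in Artificial CD8 against splenic CD8, and 0.020 for Mrps12 in Artificial CD8 against CD4+CD8+. With iRTE held to replicates 1 to 3, the values were 0.067 for Mrps12 and 0.084 for Mrpl23 in iRTE against Artificial CD8, and 0.10 for Mrpl18 and 0.063 for Mrps12 in iRTE against CD4+CD8+. With the replicate block, the values were 0.034 for Mrps14 and 0.014 for Mrpl36 in Artificial CD8 against CD4+CD8+. With RLE scaling, the values were 0.017 for Mrps12 in Artificial CD8 against CD4+CD8+. With a mean of at least 10 CPM, the values were 0.039 for Mrps12 in Artificial CD8 against CD4+CD8+. With DESeq2, the values were 0.017 for Mrps12 in Artificial CD8 against CD4+CD8+. With limma-voom, the values were 0.028 for Mrps12 in Artificial CD8 against CD4+CD8+. Leaving out 1 library at a time, the values in iRTE against splenic CD8 ran from -0.042 to 0.18 for Mrps17. Leaving out 1 library at a time, the values in Artificial CD8 against splenic CD8 ran from -0.052 to 0.053 for Mrpl37. Leaving out 1 library at a time, the values in iRTE against Artificial CD8 ran from -0.042 to 0.23 for Mrps14, -0.24 to 0.014 for Mrps18c, -0.16 to 0.054 for Mrps30, -0.015 to 0.18 for Mrps36, -0.20 to 0.040 for Mrps12 and -0.15 to 0.063 for Mrpl23. Leaving out 1 library at a time, the values in iRTE against CD4+CD8+ ran from -0.082 to 0.11 for Mrpl18, -0.11 to 0.34 for Mrps14, -0.081 to 0.41 for Mrpl41, -0.32 to 0.11 for Mrps18c, -0.37 to 0.084 for Mrps36, -0.028 to 0.34 for Mrpl36, -0.20 to 0.17 for Mrps12 and -0.30 to 0.069 for Mrpl23. Leaving out 1 library at a time, the values in Artificial CD8 against CD4+CD8+ ran from -0.22 to 0.21 for Mrps14, -0.45 to 0.037 for Mrpl41, -0.26 to 0.10 for Mrps18a, -0.062 to 0.14 for Mrps18b, -0.20 to 0.23 for Mrps18c, -0.45 to 0.0039 for Mrps36, -0.17 to 0.16 for Mrpl36, -0.11 to 0.24 for Mrps12, -0.26 to 0.089 for Mrpl23 and -0.021 to 0.27 for Mrps6.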
